A study of Mus musculus with 8 samples.

Results

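The blood-brain barrier genes described here are 10 genes that brain endothelial cells use to seal, stock and maintain the wall between blood and brain: Cldn5, Ocln, Tjp1, Cdh5, Pecam1, Mfsd2a, Slc2a1, Abcb1a, Slco1a4 and Lef1. They were taken by symbol from the gene table of the count matrices, which lists 54232 genes, and all 10 were found there once. Their RNA was measured by single-nucleus sequencing in 8 libraries from male Swiss Webster mice aged 10 weeks, each made from frozen brain as a cube of 2 mm of forebrain beside the lesion site. There are 4 groups of 2 libraries. The control group is labelled only as control, the BCAS group had BCAS alone, the TBI group had traumatic brain injury alone, and the BCAS+TBI group had both. BCAS is an abbreviation that the labels do not spell out and that the title of the study ties to cerebral hypoperfusion. The labels give no sham operation, no severity and no time between surgery and collection, and they call the libraries biological replicates without saying how many animals each holds. The p-values below therefore measure the spread between these libraries only.

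Brain capillaries differ from most vessels in having continuous tight junctions, few transport vesicles and a dense set of transporters. Claudins and occludin span the membrane at the tight junction and ZO proteins tie them to the cytoskeleton, while VE-cadherin and PECAM-1 hold neighbouring endothelial cells together along the rest of the contact. Nutrients enter through carriers such as GLUT1, efflux pumps such as P-glycoprotein return drugs to the blood, and Wnt signals acting through beta-catenin and LEF/TCF factors keep this programme on in the adult brain.

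The nuclei were placed in classes by marker genes that exclude the 10 genes, and the clustering did not use them either, so that their levels could be read independently of how the nuclei were named. Of 53390 barcodes, 45560 passed the filters, and 1174 of these formed the endothelial-like class, with 67 to 234 nuclei per library and a median of 1030.5 UMIs (unique molecular identifiers, each counting 1 captured RNA molecule) per nucleus. All 12 endothelial markers were detected in it, among them Flt1 at 5532 ± 782 CPM (mean ± SD over 8 libraries). CPM is the usual count unit scaled to a common total, here the UMIs of a gene over all UMIs of that class in that library. In the classes other than the vessel cluster described next, the median of the 12 markers was 0.121% to 2.12% of the endothelial-like level. Summed mural (pericyte and smooth muscle) markers stood at 291 to 1157 CPM in the endothelial-like class, against 8513 CPM in the mural class itself. A separate cluster of 323 nuclei carried both endothelial and mural markers and was led by haemoglobin genes, Ly6c1, Rgs5 and Cldn5. It is called the vessel cluster and was kept apart from the endothelial-like class.

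The libraries split by depth in a way the groups do not explain. Total UMIs were 28118725 to 33363564 in control 1, BCAS 1, TBI 1 and BCAS+TBI 2 (called set 1) and 42651388 to 56135192 in control 2, BCAS 2, TBI 2 and BCAS+TBI 1 (called set 2). Each group has 1 library in each set. Haemoglobin genes stood at 33135 CPM in the endothelial-like nuclei of BCAS 1 and at 484 to 4275 CPM in the other 7 libraries. Pairs of libraries shared 5 to 20 cell barcodes, at most 0.321% of a library. Targeting was for about 3000 captures per sample, and the files hold 6191 to 7882 barcodes each.

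The genes lie on 9 chromosomes of GRCm38, the build the submitters' processing notes name, with extents from the GENCODE annotation. Cldn5 (chr16:18776847-18778262, plus strand) consists of 1 exon of 1416 bases and has no intron. The other 9 are 84.3% to 96.6% intronic by length, from Mfsd2a (chr4:122946850-122961188, minus strand) to Tjp1 (chr7:65296165-65527781, minus strand). The remaining loci are Ocln at chr13:100496507-100552718 on the minus strand, Cdh5 at chr8:104101625-104144511 on the plus strand, Pecam1 at chr11:106654217-106750628 on the minus strand, Slc2a1 at chr4:119108711-119137983 on the plus strand, Abcb1a at chr5:8660077-8748575 on the plus strand, Slco1a4 at chr6:141805440-141856199 on the minus strand and Lef1 at chr3:131110471-131224356 on the plus strand. Nuclear RNA holds many unspliced molecules, and whether intronic reads were counted is not given in the sources used here.

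RefSeq (GRCm38.p6) gave promoter windows for 8 of the 10 genes, 12 windows in all, and none for Cdh5 and Pecam1. The windows below are each the 250 bases before an annotated start, 5′ to 3′ on the strand of the gene. They belong to Cldn5, the one member called between library sets in endothelial-like nuclei, and to Mfsd2a, Slco1a4, Abcb1a and Lef1, the genes that were lower in arterial-led than in capillary-ranked nuclei of every library. Capitals mark matches to CTTTGA, the core bound by LEF/TCF factors, or to AGGAAG, a core bound by ETS factors, on either strand.
Cldn5, chr16:18776597-18776846, plus strand: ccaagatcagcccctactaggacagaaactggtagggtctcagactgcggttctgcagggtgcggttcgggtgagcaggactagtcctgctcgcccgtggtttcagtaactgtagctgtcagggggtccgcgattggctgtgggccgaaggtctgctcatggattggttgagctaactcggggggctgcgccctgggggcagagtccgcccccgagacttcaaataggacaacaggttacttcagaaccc
Mfsd2a, chr4:122961189-122961438, minus strand: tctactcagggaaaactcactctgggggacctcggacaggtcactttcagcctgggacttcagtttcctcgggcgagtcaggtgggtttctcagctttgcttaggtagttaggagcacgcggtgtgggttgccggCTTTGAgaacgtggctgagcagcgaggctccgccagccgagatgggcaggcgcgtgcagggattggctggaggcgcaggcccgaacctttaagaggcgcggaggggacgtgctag
Slco1a4, chr6:141856221-141856470, minus strand: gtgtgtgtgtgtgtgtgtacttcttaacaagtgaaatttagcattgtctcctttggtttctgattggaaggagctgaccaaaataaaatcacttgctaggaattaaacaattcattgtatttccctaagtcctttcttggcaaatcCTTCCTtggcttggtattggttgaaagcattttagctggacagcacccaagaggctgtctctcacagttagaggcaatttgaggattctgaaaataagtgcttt
Abcb1a, chr5:8566841-8567090, plus strand: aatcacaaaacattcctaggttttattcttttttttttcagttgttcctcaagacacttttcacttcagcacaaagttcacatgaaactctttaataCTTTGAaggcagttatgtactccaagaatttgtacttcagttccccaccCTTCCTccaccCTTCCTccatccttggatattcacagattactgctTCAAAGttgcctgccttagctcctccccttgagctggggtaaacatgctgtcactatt
Lef1, chr3:131156044-131156293, plus strand: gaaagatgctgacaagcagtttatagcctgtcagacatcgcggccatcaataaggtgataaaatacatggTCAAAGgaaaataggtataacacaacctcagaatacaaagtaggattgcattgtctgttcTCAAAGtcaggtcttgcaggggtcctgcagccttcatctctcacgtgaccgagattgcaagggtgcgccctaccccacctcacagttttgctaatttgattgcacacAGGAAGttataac
The Mfsd2a window holds 1 match to CTTTGA, starting 115 bases before the annotated start. The Slco1a4 window holds 1 match to AGGAAG on the reverse strand, 104 bases before the start. The Abcb1a window, which lies 92986 bases upstream of the GENCODE extent of the gene, holds 2 matches to each motif. Of the 4 Lef1 windows, the 1 furthest into the gene holds 2 matches to CTTTGA and 1 to AGGAAG, and the other 3 hold neither. No match was found in the windows of Cldn5, Ocln, Tjp1 and Slc2a1. Among all 32851 promoter windows of this length in the RefSeq table, 13.8% hold CTTTGA and 29.5% hold AGGAAG. These are letter matches and say nothing about binding.

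The 10 genes differed by degrees in how far their RNA was confined to vascular nuclei, without a sharp division. Cldn5, which forms the tight junction strand itself, was at 1713 ± 614 CPM in endothelial-like nuclei and at 3.39% of that level or less in every class outside the vessel cluster. Abcb1a, encoding the efflux pump P-glycoprotein, was at 1060 ± 156 CPM and at most 1.88% of that level in the named classes. An unnamed cluster described below held more of it, at 291 CPM. Pecam1, an adhesion molecule of endothelial contacts that platelets and leukocytes also carry, was at 659 ± 80.1 CPM, and microglia-like nuclei came next at 4.23% of the level. Slco1a4, an organic anion carrier, was at 3594 ± 479 CPM, and the choroid plexus-like class followed at 271 ± 83.5 CPM, which is 7.54%. These comparisons between classes are descriptions without a test, since the classes are clusters of the same nuclei.

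Cdh5, encoding VE-cadherin of the endothelial adherens junction, was at 279 ± 41.2 CPM in endothelial-like nuclei and at 89.7 ± 27.0 CPM in fibroblast-like nuclei, 32.1% of the endothelial-like level. Flt1 in the same fibroblast-like nuclei stood at 2.38% of its endothelial-like level, so the 2 endothelial genes were not present there in the same ratio. Ocln, the second membrane protein of the tight junction, was at 338 ± 49.7 CPM and reached 102 ± 25.2 CPM in choroid plexus-like nuclei (30.1%) and 51.5 ± 13.1 CPM in ependymal-like nuclei (15.2%), both epithelial linings of the ventricles. An unnamed cluster of 235 nuclei led by Slc47a1, Bnc2 and Tbx15 carried Abcb1a at 291 ± 72.9 CPM, Cdh5 at 86.3 ± 47.2 CPM and Ocln at 71.3 ± 26.7 CPM, while its Cldn5 level, pooled over libraries, was 6.16 CPM. That cluster was picked out after the values were seen.

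Tjp1, which encodes the scaffold ZO-1 used by many kinds of junction, was found in every class. Its level was 1554 ± 323 CPM in endothelial-like nuclei, 652 ± 139 CPM in fibroblast-like nuclei, 455 ± 44.8 CPM in astrocyte-like nuclei and 396 ± 36.4 CPM in excitatory neuron-like nuclei. Choroid plexus-like nuclei had the smallest value, 87.5 ± 27.2 CPM. Excitatory neuron-like nuclei held 46.2% of all Tjp1 UMIs in kept nuclei and endothelial-like nuclei 2.16%.

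Lef1, the transcription factor through which beta-catenin acts, was at 1208 ± 258 CPM in endothelial-like nuclei and at 394 ± 110 CPM in choroid plexus-like nuclei (32.6%). Excitatory neuron-like nuclei averaged 78.8 ± 13.2 CPM, yet they held 55.9% of Lef1 UMIs against 10.2% in the endothelial-like class. They are both more numerous (17909 against 1174 nuclei) and deeper (a median of 6380 against 1030.5 UMIs per nucleus). Most of the neuronal signal came from 1 cluster of 2412 nuclei led by Synpo2, Ntng1 and Prkcd, with Lef1 at 540 ± 51.6 CPM and 473 to 611 CPM over the 8 libraries. Inhibitory neuron-like nuclei were at 0.19% of the endothelial-like level.

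Mfsd2a, the lysolipid carrier that brings docosahexaenoic acid into the brain and restrains vesicle traffic, was at 154 ± 71.2 CPM in endothelial-like nuclei. Oligodendrocyte precursor-like nuclei held 74.8 ± 24.4 CPM (48.4%) and astrocyte-like nuclei 36.3 ± 11.8 CPM (23.5%). Slc2a1, encoding the glucose carrier GLUT1, was at 1046 ± 177 CPM, with 71.4 ± 25.1 CPM in astrocyte-like nuclei (6.82%), 67.6 ± 33.1 CPM in ependymal-like nuclei (6.46%) and 50.3 ± 20.1 CPM in oligodendrocyte-like nuclei (4.81%). Relative to the endothelial-like level, both therefore stood higher in astrocyte-like nuclei than Cldn5 and Abcb1a, which were there at 0.90% and 0.94% of that level. Some of these glial levels differed between library sets, as given below: Slc2a1 in astrocyte-like and oligodendrocyte-like nuclei and Mfsd2a in oligodendrocyte precursor-like nuclei.

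**Figure D1:**
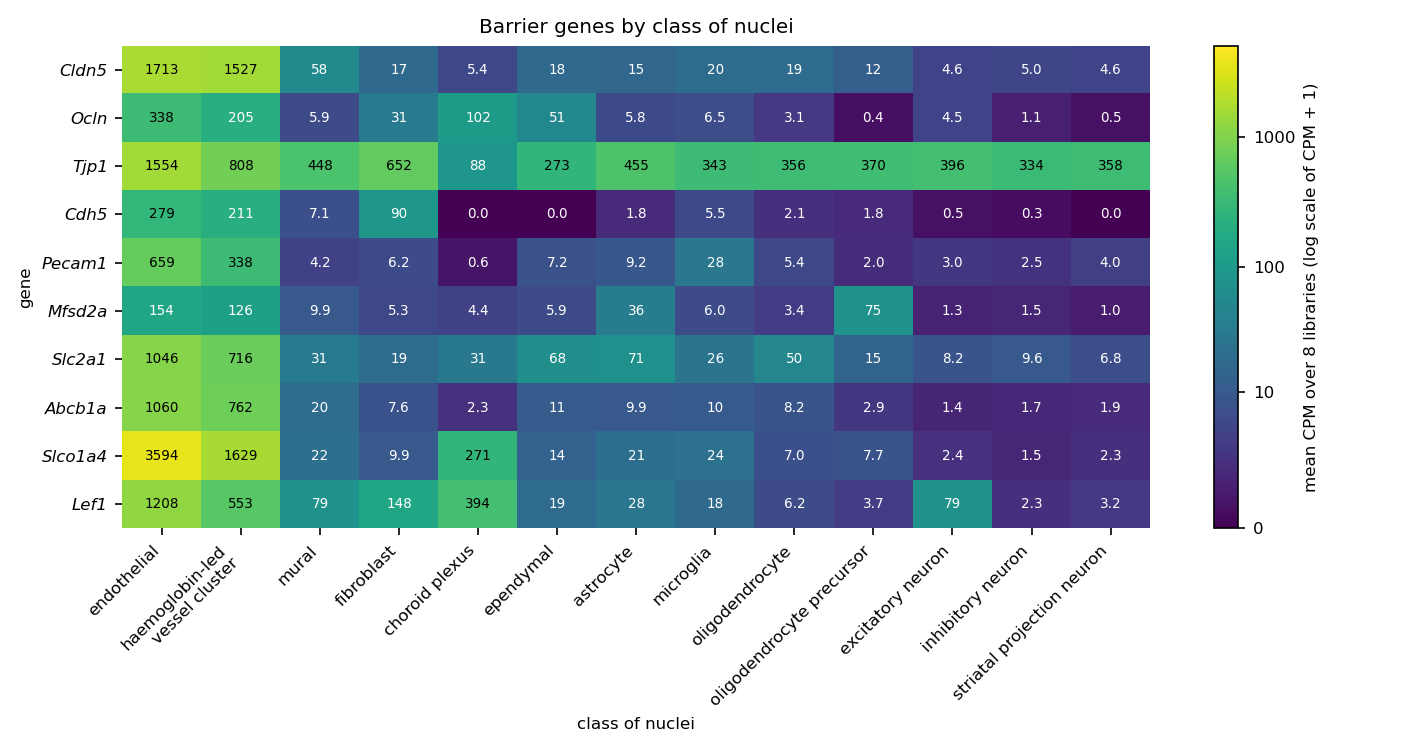
Level of each of the 10 genes by cell class, as a colour map of the mean CPM over 8 libraries on a logarithmic colour scale, with each mean printed in its cell. Outside the endothelial-like class and the vessel cluster, Cldn5, Abcb1a, Pecam1 and Slco1a4 are at 7.54% or less of their endothelial-like level in the classes shown. Tjp1 is at 5.63% to 42.0% of its endothelial-like level in all other classes.

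Shares of nuclei with at least 1 UMI followed the same lines. In endothelial-like nuclei they averaged 90.4% for Slco1a4, 75.5% for Tjp1, 66.4% for Cldn5, 66.1% for Lef1, 64.3% for Abcb1a, 59.5% for Slc2a1, 49.1% for Pecam1, 31.8% for Ocln, 27.5% for Cdh5 and 14.6% for Mfsd2a. Excitatory neuron-like nuclei, with a median of 6380 UMIs, gave 1.13% for Slco1a4, 2.79% for Cldn5, 0.953% for Abcb1a and 2.01% for Pecam1. With every nucleus thinned to 700 UMIs and shallower nuclei left out, Cldn5 was seen in 60.1% of endothelial-like and 0.410% of excitatory neuron-like nuclei, and Slco1a4 in 84.3% and 0.179%. Tjp1 was seen in 64.3% and 23.4% at that depth, and Lef1 in 52.9% and 4.04%.

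The vessel cluster carried the same genes at 45.3% (Slco1a4) to 89.1% (Cldn5) of the endothelial-like level. With a median of 5680 UMIs per barcode it held more of the Cldn5 UMIs (48.3%) than the endothelial-like class did (32.9%), and more of Abcb1a (42.0% and 36.5%), Cdh5 (38.8% and 31.0%), Slc2a1 (25.8% and 22.7%) and Mfsd2a (18.8% and 14.7%). Slco1a4 (35.0% and 47.3%), Pecam1 (28.9% and 32.8%) and Ocln (21.6% and 22.0%) were the other way round. How far this cluster consists of joined endothelial and mural barcodes was not tested.

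Along the vascular tree the genes fell into different patterns. The endothelial-like nuclei were divided again without the 10 genes, giving 6 sub-clusters. One of 160 nuclei was led by arterial genes (Eln, Mgp, Fbln5, Bmx), 1 of 183 nuclei by venous genes (Vwf, with Col6a6, Adgrg6 and Il1r1), and 3 with 814 nuclei together had a higher summed level of the capillary list than of the arterial or venous list. These 3 are called capillary-ranked, since no gene of the capillary list was among their leading genes. The one of 471 nuclei was led by Fgf13, Igf1r and Plcb1 and came mostly from library set 2 (430 nuclei). The one of 170 nuclei was led by Sorbs2os, Ttr, Dnah3 and Ptgds, among them genes of choroid plexus, ependyma and meninges, and came mostly from set 1 (164 nuclei). The one of 173 nuclei was led by haemoglobin genes and Rgs5. A last one of 17 nuclei was led by neuronal genes and left out. Values below are pooled over libraries with exact 95% Poisson intervals, which cover counting error only, and no test was made between sub-clusters.

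Mfsd2a was found mainly in the capillary-ranked nuclei, at 209 CPM (182 to 239, from 215 UMIs). The arterial-led nuclei held 16.4 CPM (3.4 to 47.9, from 3 UMIs) and the venous-led nuclei 32.4 CPM (14.0 to 63.9, from 8 UMIs). In 8 of 8 libraries both were below the capillary-ranked level. Slco1a4 was at 4400 CPM (4273 to 4530) in capillary-ranked, 3863 CPM (3621 to 4116) in venous-led and 1796 CPM (1607 to 2001) in arterial-led nuclei. Its arterial-led level was therefore 40.8% of the capillary-ranked level, and lower in 8 of 8 libraries. Each of the 3 capillary-ranked sub-clusters stood above the arterial-led one for both genes, with Mfsd2a at 158, 297 and 242 CPM and Slco1a4 at 4619, 4728 and 4047 CPM, in the order given above.

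Abcb1a and Lef1 were likewise lowest in arterial-led nuclei in 8 of 8 libraries when set against capillary-ranked nuclei. Abcb1a was at 803 CPM (678 to 943) against 1221 CPM (1154 to 1290), with 1119 CPM in venous-led nuclei. Lef1 was at 644 CPM (533 to 772) in arterial-led, 1374 CPM (1303 to 1447) in capillary-ranked and 1844 CPM (1679 to 2022) in venous-led nuclei, and was higher in venous-led than arterial-led nuclei in all 8 libraries. Tjp1 followed the same order, with 1190 CPM (1038 to 1359), 1607 CPM (1531 to 1687) and 2667 CPM (2467 to 2879), and exceeded its arterial-led level in venous-led nuclei of all 8 libraries.

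Cldn5 had a different shape. It was at 1698 CPM (1515 to 1898) in arterial-led and 1655 CPM (1577 to 1736) in capillary-ranked nuclei, with the arterial-led level the lower one in 4 of 8 libraries. In venous-led nuclei it was at 843 CPM (732 to 966), below the capillary-ranked level in 8 of 8 libraries. The pooled capillary-ranked value mixes 918 CPM in the sub-cluster mostly of set 2 with 2274 CPM in the one mostly of set 1 and 2317 CPM in the haemoglobin-led one. Pecam1 was highest in arterial-led nuclei, at 1223 CPM (1068 to 1394), against 628 CPM (580 to 678) in capillary-ranked and 576 CPM (485 to 678) in venous-led nuclei, and no library broke that order between arterial-led and the other 2. Ocln (382, 384 and 328 CPM in arterial-led, capillary-ranked and venous-led nuclei) and Cdh5 (268, 325 and 263 CPM) had overlapping intervals throughout. Slc2a1 was at 808, 1036 and 1171 CPM, and its arterial-led value was below the capillary-ranked one in 5 of 8 libraries. The 2 membrane proteins of the tight junction, Cldn5 and Ocln, were thus not distributed alike, and neither were the 2 adhesion molecules Pecam1 and Cdh5.

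**Figure D2:**
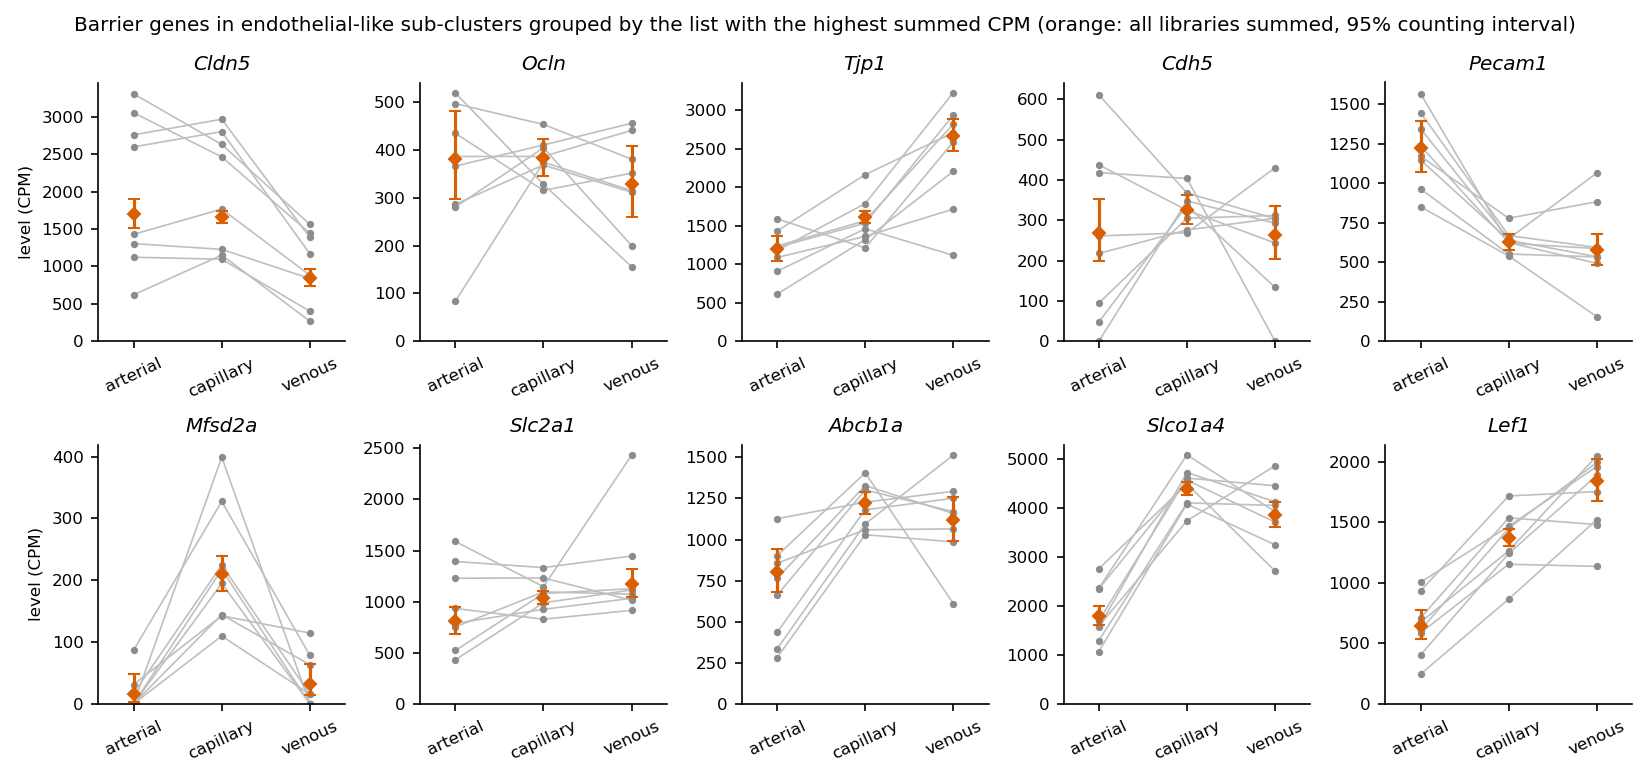
Level of each gene in arterial-led, capillary-ranked and venous-led sub-clusters of endothelial-like nuclei, in CPM. Grey points joined by lines are the 8 libraries, and orange diamonds are the libraries summed, with exact 95% Poisson intervals. Mfsd2a stands at 209 CPM in capillary-ranked nuclei and at 16.4 and 32.4 CPM in the other 2, Pecam1 is highest in arterial-led nuclei, and Cldn5 is lowest in venous-led nuclei.

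The surgeries were compared over libraries, with UMIs summed per library and class and fitted by edgeR's quasi-likelihood test across 11 classes and 88904 class-gene pairs, 4815 of them in the endothelial-like class. A gene is called at a Benjamini-Hochberg adjusted p under 0.05 over all pairs of a contrast. All 10 genes passed the filter on low counts in endothelial-like nuclei. The design is balanced over depth, since each group holds 1 library of each set. In the values below, library 1 of a group comes before library 2.

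Among the tight junction genes, Cldn5 was at 2527 and 1528 CPM in control, 2085 and 1064 CPM in BCAS, 2443 and 943 CPM in TBI, and 1234 and 1880 CPM in BCAS+TBI. The 4 groups overlapped, and the library of set 1 was the higher 1 in each. Ocln was at 322 and 392 CPM in control, 330 and 355 CPM in BCAS, 307 and 352 CPM in TBI, and 403 and 246 CPM in BCAS+TBI, whose 2 libraries were the highest and the lowest of the 8. Tjp1 was at 1249 and 1952 CPM in control, 1149 and 1387 CPM in BCAS, 1568 and 1822 CPM in TBI, and 1965 and 1343 CPM in BCAS+TBI. Its lowest value was in a BCAS library and its highest in a BCAS+TBI library, and the 4 libraries with TBI overlapped the 4 without.

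For the adhesion genes, Cdh5 was at 239 and 324 CPM in control, 319 and 300 CPM in BCAS, 261 and 314 CPM in TBI, and 262 and 213 CPM in BCAS+TBI. Pecam1 was at 546 and 786 CPM in control, 713 and 671 CPM in BCAS, 607 and 632 CPM in TBI, and 589 and 727 CPM in BCAS+TBI. For both, the 2 control libraries spanned the TBI libraries, and for Pecam1 they spanned all 6 others.

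Among the carriers, Mfsd2a was at 277 and 153 CPM in control, 106 and 182 CPM in BCAS, 222 and 82.0 CPM in TBI, and 146 and 67.2 CPM in BCAS+TBI. It had the widest relative spread of the 10 genes and the fewest UMIs in this class, 245 over the 8 libraries. For Mfsd2a, as for Slc2a1, both BCAS+TBI libraries lay below both controls, and each other group overlapped the controls. Slc2a1 was at 1204 and 986 CPM in control, 1308 and 964 CPM in BCAS, 1241 and 940 CPM in TBI, and 866 and 862 CPM in BCAS+TBI. The BCAS+TBI libraries were the 2 lowest, below TBI 2 by less than the gap between the 2 TBI libraries. Abcb1a was at 1121 and 1219 CPM in control, 979 and 1274 CPM in BCAS, 986 and 974 CPM in TBI, and 1128 and 795 CPM in BCAS+TBI. Slco1a4 was at 3843 and 4046 CPM in control, 3000 and 3883 CPM in BCAS, 3593 and 3715 CPM in TBI, and 3950 and 2720 CPM in BCAS+TBI. Both genes had their lowest value in BCAS+TBI 2. The TBI libraries lay below both controls for these 2 genes, and the BCAS and BCAS+TBI libraries overlapped the controls. How many of all endothelial-like genes have both libraries of a group below both controls was not computed. These separations therefore have no background beside them, and TBI alone against control was not among the contrasts tested. Lef1, the Wnt pathway factor, was at 1308 and 1225 CPM in control, 830 and 1460 CPM in BCAS, 1241 and 1401 CPM in TBI, and 1406 and 795 CPM in BCAS+TBI, and its 2 lowest values were BCAS 1 and BCAS+TBI 2, the libraries with the fewest endothelial-like nuclei (67 and 68).

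**Figure D3:**
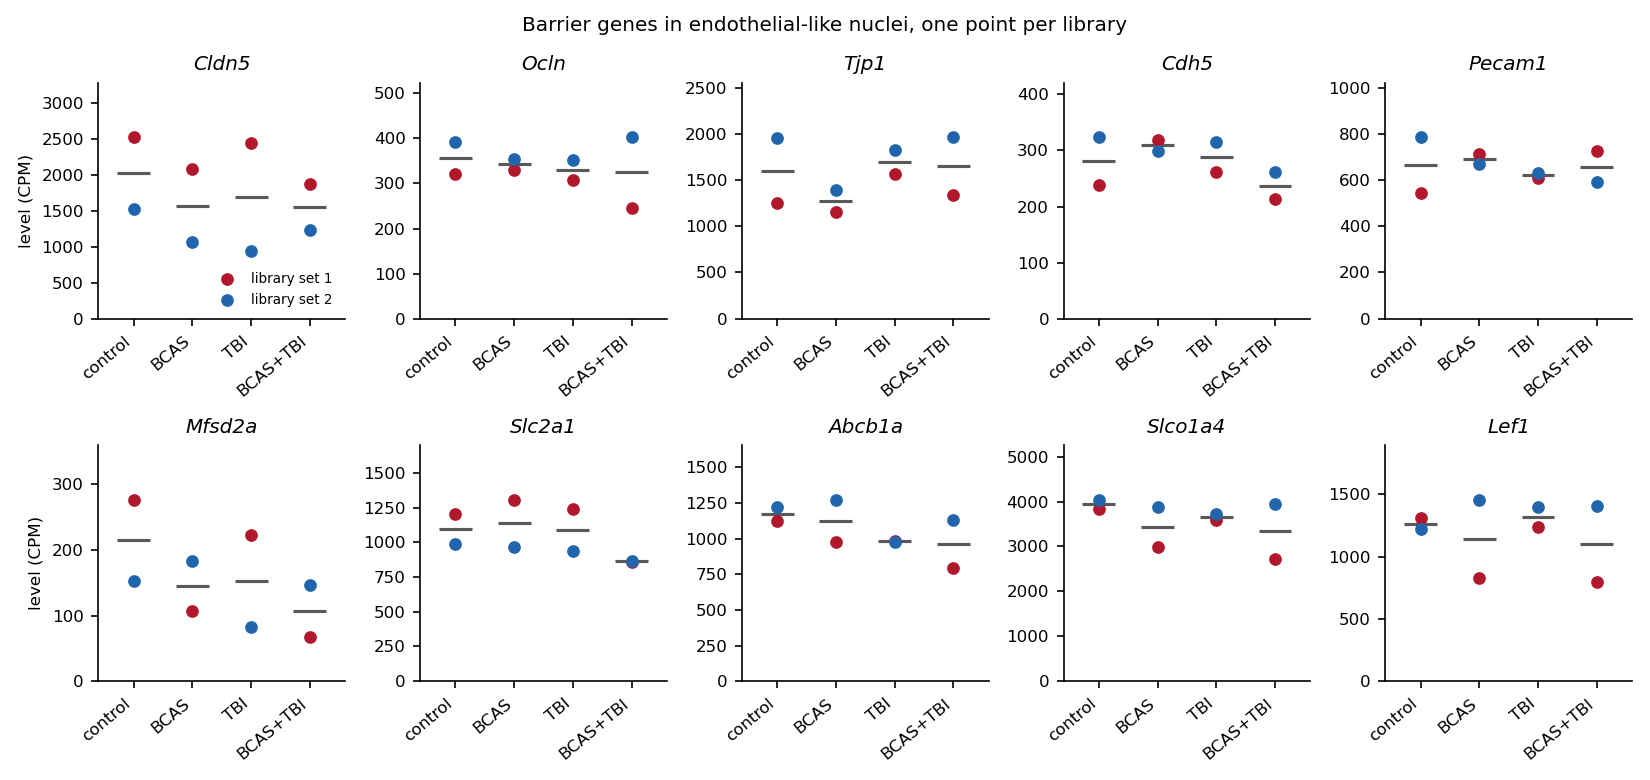
Level of each of the 10 genes in endothelial-like nuclei of the 8 libraries, in CPM, by group. Red points are library set 1, blue points library set 2, and bars the mean of the 2 libraries. Libraries of the 4 groups overlap for most genes, and Cldn5 separates by library set, not by group.

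None of the 10 genes was called in any contrast. For TBI averaged over BCAS (4 libraries with against 4 without TBI), 0 of 10 were called against 0% of the endothelial-like genes and 0% of all class-gene pairs. The log2 fold changes ran from −0.47 (SE 0.35) for Mfsd2a, with unadjusted p = 0.208 and adjusted p = 1.00, to 0.24 (SE 0.25) for Tjp1, with unadjusted p = 0.359. Abcb1a was at −0.24 (SE 0.23), Slc2a1 at −0.19, Cdh5 at −0.16 and Cldn5 at −0.13 (SE 0.35), and Lef1 was at 0.005. The median of the 10 was −0.11 beside −0.01 over all endothelial-like genes, with 2 of 10 positive.

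For BCAS averaged over TBI, 0 of 10 were called against 0% of endothelial-like genes. Mfsd2a was at −0.36 (SE 0.36, unadjusted p = 0.324), Cldn5 at −0.21 (SE 0.35), Lef1 at −0.18 (SE 0.26), Tjp1 at −0.16 and Slco1a4 at −0.14, and Pecam1 at 0.09. The median of the 10 was −0.13 beside −0.01 over all genes. For BCAS+TBI against TBI, the contrast that the title of the study poses, 0 of 10 were called against 0% of genes, with Mfsd2a at −0.33 (SE 0.52), Slc2a1 at −0.32 (SE 0.35, unadjusted p = 0.370), Cdh5 at −0.26 (SE 0.33), Lef1 at −0.26 (SE 0.37) and Cldn5 at −0.10 (SE 0.49).

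For BCAS+TBI against control, 0 of 10 were called against 0% of genes, and the log2 fold change of Mfsd2a was −0.83 (SE 0.51, unadjusted p = 0.124), followed by Cldn5 at −0.34 (SE 0.49), Slc2a1 at −0.31 and Abcb1a at −0.25. The interaction, which asks whether the TBI difference depends on BCAS, called 0 of 10 against 0% of genes, with Cdh5 at −0.41 (SE 0.46), Slc2a1 at −0.41 (SE 0.49) and Tjp1 at 0.27 (SE 0.50). None of the 10 genes had an unadjusted p under 0.05 in any of the 5 contrasts. In the order given above, 4.69%, 3.74%, 2.66%, 5.63% and 2.49% of endothelial-like genes had one. These contrasts share libraries and are not independent of each other.

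The size of change that could have been seen was checked on simulated counts for TBI averaged over BCAS. With 4609 genes, the fit recovered 96% of genes changed 4-fold and 8% of genes changed 2-fold. The adjustment there was over these 4609 genes alone, and not over the 88904 class-gene pairs behind the calls above. Recovery under the rule used for those calls was not measured. A term for library set raised these to 99% and 57% but called 0.159% of unchanged genes. With that term, the 10 genes again gave 0 calls in every contrast, where it called 0% of endothelial-like genes for TBI averaged over BCAS, 0.208% for BCAS averaged over TBI, 0% for BCAS+TBI against TBI, 0.498% for BCAS+TBI against control and 0% for the interaction. Mfsd2a then stood at −0.48 (SE 0.30, unadjusted p = 0.128) for TBI averaged over BCAS. In the simulated counts a 2-fold difference in a single gene was therefore mostly not detectable by the fit without that term.

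**Figure D4:**
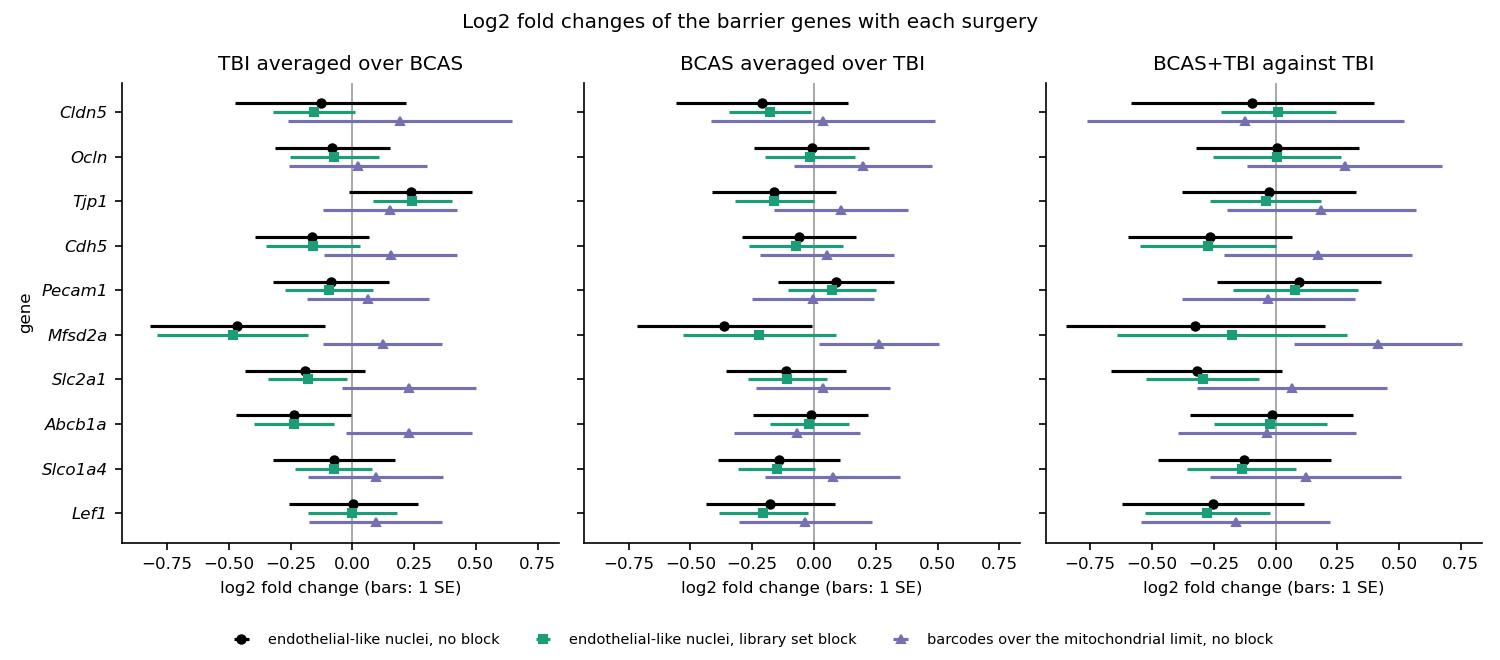
Log2 fold change of each gene in endothelial-like nuclei with bars of 1 standard error, for 3 contrasts. Black points are the fit without a block, green squares the fit with a term for library set, and violet triangles the gated barcodes over the mitochondrial limit described below. The bars of most genes cross 0, and Mfsd2a is at −0.36 in endothelial-like nuclei and 0.26 in those barcodes for BCAS averaged over TBI.

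Outside the endothelial-like class, 35 further pairs of gene and class passed the filter, and 0 of these were called in each contrast, against 0% of all class-gene pairs. Cdh5 in fibroblast-like nuclei was at 0.64 (SE 0.28, unadjusted p = 0.0453 by edgeR) for TBI averaged over BCAS. Abcb1a in astrocyte-like nuclei was at 1.29 (SE 0.48, unadjusted p = 0.0236 by edgeR) for BCAS averaged over TBI. That value rests on 66 UMIs in 3322 nuclei. The Abcb1a level there was 0.94% of the endothelial-like level, near the median of 0.967% for the 12 endothelial markers in the same nuclei. In this fit without a block, no other pair had an unadjusted p under 0.05 in any contrast. Of all class-gene pairs 1.22%, 1.15%, 0.954%, 1.21% and 1.08% had one for TBI averaged over BCAS, BCAS averaged over TBI, BCAS+TBI against TBI, BCAS+TBI against control and the interaction. With the term for library set, 1, 2, 5, 1 and 1 of 45 pairs of a member and a class had one, in the same order. The shares of all class-gene pairs were then 4.69%, 3.99%, 4.26%, 4.09% and 4.76%, and 0 of the 45 were called.

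The number of endothelial-like nuclei sets the depth of every value above. They made up 2.39 ± 0.81% of kept nuclei with TBI and 2.65 ± 1.05% without (exact two-sided permutation p = 0.686, 4 libraries a side). With BCAS they made up 2.01 ± 0.82% and without it 3.03 ± 0.67% (exact permutation p = 0.143, where 4 against 4 can reach 0.0286). Within the library sets the BCAS difference was −1.19 percentage points in set 1 and −0.85 in set 2, with an exact p of 0.0556, the smallest that shuffling within sets allows.

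Cldn5 differed between library sets, in endothelial-like nuclei and in classes where it is near background. In endothelial-like nuclei it was at 2234 ± 304 CPM in set 1 (1880 to 2527) and 1192 ± 254 CPM in set 2 (943 to 1528), without overlap, a log2 difference of 0.98 (SE 0.17, adjusted p = 0.000186 by edgeR's quasi-likelihood test, adjusted over the pairs of all classes). By that test 11.9% of endothelial-like genes were called, and 8.41% of all genes tested were called higher in set 1. The other 9 genes were not called in endothelial-like nuclei: Slc2a1 was at 0.35 (adjusted p = 0.107), Tjp1 at −0.36 (adjusted p = 0.0942) and Lef1 at −0.35 (adjusted p = 0.147). Ocln did not overlap between sets (301 and 375 CPM on average), with a log2 difference of −0.25 and an adjusted p of 0.325. The Cldn5 excess in set 1 was not limited to vascular nuclei. Where Cldn5 is near background the log2 difference was 2.66 (SE 0.35, adjusted p = 8.3e-06) in inhibitory neuron-like, 1.93 (SE 0.46, adjusted p = 0.00357) in oligodendrocyte-like and 1.61 (SE 0.25, adjusted p = 0.000495) in excitatory neuron-like nuclei, by the same edgeR test, where 33% of all class-gene pairs were called. In astrocyte-like nuclei it was 0.59 (adjusted p = 0.147). Other members were called by this edgeR test too. Slc2a1 was higher in set 1 in astrocyte-like (0.89, adjusted p = 0.000201), oligodendrocyte-like and both excitatory and inhibitory neuron-like nuclei. Mfsd2a was higher in oligodendrocyte precursor-like nuclei (0.81). Tjp1 was lower in set 1 in excitatory (−0.43, adjusted p = 6.7e-05), inhibitory and striatal projection neuron-like nuclei, and Lef1 in astrocyte-like nuclei (−1.04, adjusted p = 0.00575).

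In the vessel cluster the Cldn5 levels of the sets overlapped, from 1325 to 2207 CPM in set 1 and from 1061 to 1631 CPM in set 2. There 5 of the 10 genes did not overlap between sets, each lower in set 1. The share of all genes without overlap there was not computed, so this count has no background beside it. Tjp1 averaged 635 CPM in set 1 and 981 CPM in set 2, Cdh5 162 and 260 CPM, Abcb1a 591 and 932 CPM, Slco1a4 1214 and 2045 CPM, and Lef1 417 and 689 CPM. No test between sets was made in the vessel cluster.

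The 405 genes higher in set 1 had a median genomic extent of 9.99 kb, against 54.1 kb for all genes tested and 132 kb for the 166 genes higher in set 2. Cldn5, at 1.42 kb, is among the 79 genes tested whose annotation is a single exonic block, and 18 of those 79 were called higher in set 1, with a median log2 difference of 0.50. Mitochondrial UMIs made up 1.20% to 2.77% of set 1 libraries and 0.511% to 1.04% of set 2 libraries. The part of nuclear quality, cytoplasmic RNA and gene length in the Cldn5 difference was not tested.

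**Figure D5:**
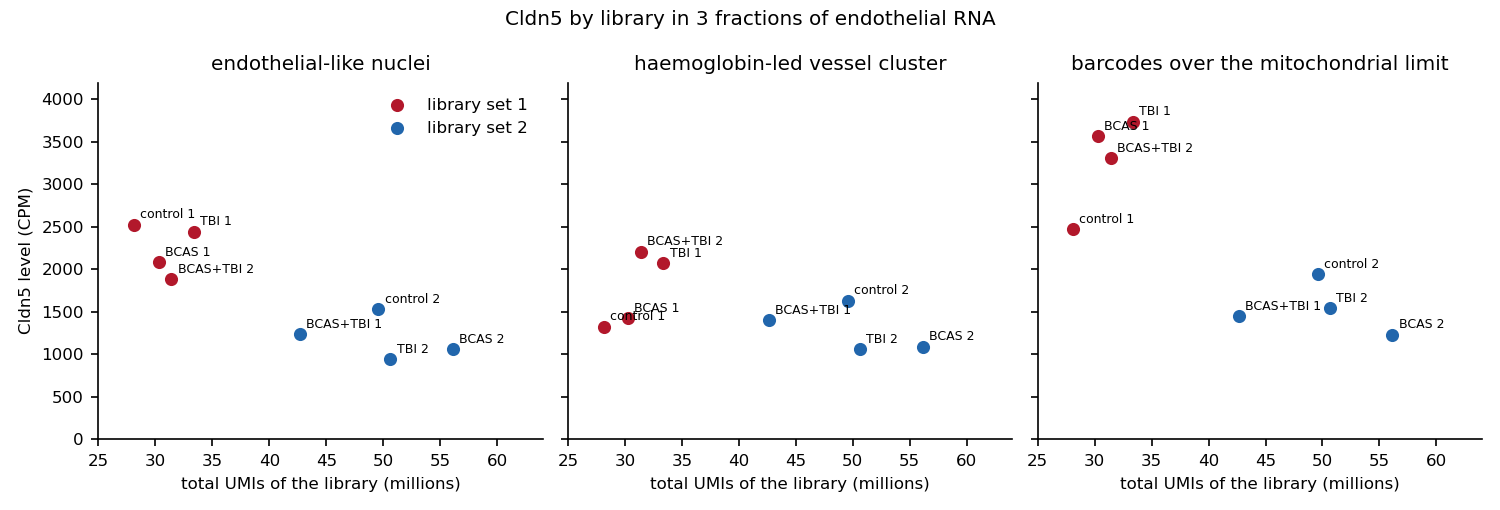
Cldn5 level in CPM against the total UMIs of the library, in endothelial-like nuclei, the vessel cluster and the gated barcodes over the mitochondrial limit, with 1 point per library, red for set 1 and blue for set 2. Only for the barcodes over the limit does the CPM total leave out mitochondrial UMIs. In endothelial-like nuclei the 4 libraries of set 1 (1880 to 2527 CPM) lie above the 4 of set 2 (943 to 1528 CPM), and each group has 1 library on each side.

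The limit on mitochondrial RNA removed many barcodes with endothelial RNA. A gate of at least 3 UMIs over at least 2 endothelial markers passed 3690 barcodes, of which 1378 (37.3%) had more than 5% mitochondrial UMIs and 2312 did not. The 1378 barcodes held 4082380 UMIs, while the endothelial-like class, which was chosen by clustering and not by this gate, held 1591348 UMIs in 1174 nuclei. They numbered 153 to 336 in each library of set 1 and 66 to 122 in each of set 2. Summed endothelial markers stood at 9032 to 12686 CPM, mural markers at 3157 to 5702 CPM and haemoglobin genes at 1985 to 14923 CPM in them. Mural markers stood at 2356 to 5409 CPM in the vessel cluster and 291 to 1157 CPM in the endothelial-like class, so these barcodes lay above the class in every library. Haemoglobin genes stood at 1269 to 50676 CPM in the vessel cluster.

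These barcodes carried all 10 genes. Without mitochondrial UMIs in the total, Cldn5 was at 2407 ± 1015 CPM, 140% of the endothelial-like level, Mfsd2a at 186 ± 28.9 CPM (120%), Cdh5 at 300 ± 52.1 CPM (108%), Abcb1a at 1008 ± 107 CPM (95.1%) and Slc2a1 at 972 ± 128 CPM (92.9%). Ocln (84.0%), Pecam1 (81.8%), Tjp1 (72.0%), Slco1a4 (70.5%) and Lef1 (61.4%) were lower than in the class. The class levels keep mitochondrial UMIs in their total, so these percentages rest on unlike totals. With those UMIs kept in both, Cldn5 was at 2213 CPM here against 1713 CPM in the class. Mfsd2a was then at 171 against 154 CPM and Cdh5 at 277 against 279 CPM. Without mitochondrial UMIs, Cldn5 ran from 1231 CPM in BCAS 2 to 3740 CPM in TBI 1, again with every library of set 1 (2475 CPM and above) over every library of set 2 (at most 1939 CPM). Its log2 difference between sets was 1.12 (SE 0.20, adjusted p = 0.000532, edgeR), where 23.7% of 7163 genes were called.

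Tested in place of the class, these barcodes gave 0 of 10 calls in each of the 5 contrasts, against 0% of genes, and no unadjusted p under 0.05. The direction of the small differences did not hold. Mfsd2a was at 0.26 (SE 0.24) for BCAS averaged over TBI and 0.42 (SE 0.34) for BCAS+TBI against TBI, where the endothelial-like class gave −0.36 and −0.33. Its levels were 185 and 172 CPM in control, 208 and 158 CPM in BCAS, 184 and 142 CPM in TBI, and 231 and 206 CPM in BCAS+TBI. Both BCAS+TBI libraries were thus above the control libraries here and below them in the endothelial-like class. All 10 log2 fold changes for BCAS+TBI against control were positive in these barcodes, from 0.06 to 0.39. Their median was 0.21, beside 0.05 over all genes tested in these barcodes. The share of all genes with a positive value was not computed. Joined to the class, the 2 kinds of barcode together also gave 0 of 10 calls in each contrast, against 0% of 9762 genes. Between library sets the joined barcodes gave calls for Cldn5 at 1.31 (SE 0.19, adjusted p = 0.000169, edgeR), Lef1 at −0.57 (SE 0.15, adjusted p = 0.00945) and Tjp1 at −0.49 (SE 0.14, adjusted p = 0.0185), where 30.2% of genes were called.

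Related genes were tested likewise in the endothelial-like class, where 0% of genes were called in each contrast. Of 20 further junction genes 12 were tested and 0 were called in each of the 5 contrasts. Their median log2 fold change was −0.02 with TBI averaged over BCAS and 0.06 between BCAS+TBI and TBI, beside −0.01 over all genes in both. Lsr, which seals tricellular contacts, was at −0.53 (SE 0.30, unadjusted p = 0.0979) for TBI averaged over BCAS. Afdn, a linker of adherens junctions, was at −0.44 (SE 0.33) and Jup, or plakoglobin, at 0.79 (SE 0.62) for BCAS+TBI against TBI.

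Of 22 barrier transport genes 20 were tested and 0 called, with medians of −0.11, −0.08 and −0.13 for TBI averaged over BCAS, BCAS averaged over TBI and BCAS+TBI against TBI. Slc7a5, the large neutral amino acid carrier, was at −0.47 (SE 0.24, unadjusted p = 0.0673) and Slc19a3, a thiamine carrier, at −0.49 (SE 0.29) for BCAS averaged over TBI. Slc40a1, the iron exporter ferroportin, was at −0.50 (SE 0.31, unadjusted p = 0.134) and Slc6a6, a taurine carrier, at −0.28 (SE 0.25) for TBI averaged over BCAS.

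Of 22 Wnt and beta-catenin genes 21 were tested and 0 called. Ctnnb1, which encodes beta-catenin and is also on the junction list, was at −0.49 (SE 0.24, unadjusted p = 0.0606) for TBI averaged over BCAS, and Sox18, an endothelial transcription factor, at −0.70 (SE 0.31, unadjusted p = 0.0380). Reck, a co-receptor for Wnt7 ligands, was at 1.17 (SE 0.44, unadjusted p = 0.0169) and Sox7 at −0.80 (SE 0.59) for BCAS+TBI against TBI. Lef1, the member of this pathway among the 10 genes, was at −0.26 (SE 0.37) in that contrast.

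Of 12 vesicle and leak genes 6 were tested and 0 called. Icam2 was at −0.55 (SE 0.35) and Cavin2, a coat protein of caveolae, at −0.28 (SE 0.26) for TBI averaged over BCAS. Cavin1 was at 0.44 (SE 0.33) and Cav1, the main caveolar protein, at 0.29 (SE 0.25) for BCAS averaged over TBI. For BCAS+TBI against TBI, Cav1 was at 0.29 (SE 0.36) and Vcam1, a leukocyte adhesion molecule, at −0.45 (SE 0.61).

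Genes of the 3 vessel segments were tested in the same way. Of 8 arterial genes 7 were tested and 0 called, and their median was 0.52 for BCAS+TBI against TBI and 1.55 for the interaction, beside −0.01 and −0.02 over all genes. The medians of the venous and capillary lists were −0.33 and −0.17 for BCAS+TBI against TBI and −0.13 and −0.15 for the interaction. Fbln5, an elastic fibre protein, was at 2.44 (SE 0.54, unadjusted p = 0.000398, adjusted p = 1.00) and Bmx, an arterial kinase, at 1.78 (SE 0.39, unadjusted p = 0.000403, adjusted p = 1.00) for BCAS+TBI against TBI. With a term for library set their adjusted p values were 0.112 and 0.144. The arterial-led sub-cluster held 18.9% and 16.2% of endothelial-like nuclei in the BCAS+TBI libraries, 10.9% and 7.69% in the TBI libraries, 13.4% and 8.29% in the BCAS libraries and 15.5% and 20.5% in the control libraries. The members that are low in arterial-led nuclei, Mfsd2a, Slco1a4, Lef1 and Abcb1a, are read from these mixtures, and the part of that share in their values was not tested.

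Of 8 venous genes 5 were tested and 0 called. Lcn2, an acute phase protein of reactive vessels, was at 4.80 (SE 1.67, unadjusted p = 0.0123) and Vwf at 0.34 (SE 0.28) for TBI averaged over BCAS. Nr2f2, a transcription factor of veins, was at −0.39 (SE 0.43) and Slc38a5 at −0.27 (SE 0.33) for BCAS averaged over TBI. All 8 capillary genes were tested and 0 called. Slc22a8 was at −0.25 (SE 0.24) and Cxcl12 at −0.25 (SE 0.24) for TBI averaged over BCAS, and Car4, a carbonic anhydrase, was at −0.49 (SE 0.25, unadjusted p = 0.0681) for BCAS averaged over TBI. The remaining named genes of these lists in each contrast were Gkn3 at 0.83 (SE 0.64) and Stmn2 at −0.47 (SE 0.32) for TBI averaged over BCAS, and Vegfc at −0.25 (SE 0.26) for BCAS averaged over TBI.

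The genes whose levels over the 35 clusters were most like each member are given as a description, by Pearson's r of log2(CPM + 10) among 8334 genes that reach 50 CPM in some cluster. Cldn5 was most like Ly6c1 (r = 0.994) and Ly6a (0.981), both carried by brain endothelial cells of mice. Ocln was most like Paqr5 (0.939) and Lsr (0.911), the tricellular junction gene named above. Cdh5 was most like Oasl2 (0.978) and Abcc6 (0.962), and Abcc6 was also among the genes most like Tjp1 (0.743).

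Pecam1 was most like Adgrl4 (0.975), 1 of the endothelial markers, and Edn1 (0.971), which encodes endothelin-1. Slco1a4 was most like Cyyr1 (0.944) and Mecom (0.939), and Abcb1a most like Klf4 (0.973), a flow-responsive factor, and Xdh (0.969). Mfsd2a was most like Caskin2 (0.906) and S100a13 (0.903), Slc2a1 most like Fas (0.957) and Prom1 (0.931), and Lef1 most like Gbe1 (0.909) and Cd59a (0.844). The points are clusters of nuclei from the same 8 libraries and differ in depth, and no test was made.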

How the data were processed

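The authors deposited, per the file headers, matrices of raw UMI counts per gene and barcode made with Cell Ranger 7.0.0; per the submitters' processing notes the build is GRCm38 (mm10). Barcodes were required to hold 500 UMIs and 300 genes or more and no more than 5% mitochondrial UMIs. The 6% with the highest Scrublet score per library were removed (scanpy 1.11.5). Clusters (Leiden, resolution 1; igraph 0.11.9; 2991 variable genes without the 10 genes; no integration) were named by fixed markers, and "X-like" means by markers only. The rule that chose the genes asks for marker-gated endothelial nuclei, and here the gate was applied to clusters, with a gate on single nuclei as an alternative. Names are rebuilt and may differ from the authors' cell types, which were not used here.

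Counts were summed per library and class and fitted with edgeR 4.0.16 in R 4.3.3 (two-sided quasi-likelihood test; TMM; filterByExpr at minimum count 10; 4 groups, no block), with Benjamini-Hochberg adjustment over all class-gene pairs. A class needed 20 nuclei in each library to enter. The code was tested on simulated counts. The 10 genes and all lists were chosen with earlier results of these data known. Named genes are the 10 members and, for each list in TBI averaged over BCAS, BCAS averaged over TBI and BCAS+TBI against TBI, the called genes or else the 2 with the smallest p. Some genes that the rule names are not reported here. The alternatives were DESeq2 1.42.0, other normalization and filters, blocks by library set or replicate number, each library left out, and other ways of choosing endothelial nuclei. Total UMIs per library were 28118725 to 56135192. Intervals and UMI counts cover counting error only.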

Additional observations from a re-analysis of the deposited data

Results flagged for a closer look

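Haemoglobin genes summed to 33135 CPM in the endothelial-like nuclei of BCAS 1. That library stood apart from the others without TBI, which held 703 to 2916 CPM, and from the others with BCAS, which held 484 to 4275 CPM. Of 48 sets of 4 libraries examined in this way these were the 2 that stood apart, and chance alone would mark about 1 in 20. The 10 barrier genes were not among them. The CPM of every gene in that library has these UMIs in its total, and their part in the values of Lef1 (830 CPM) and Mfsd2a (106 CPM) there was not tested.

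Signal of the 10 genes also lay in barcodes that the filters remove. 1378 barcodes over the mitochondrial limit passed the endothelial gate, 37.3% of all barcodes that passed it, and held 11028 Cldn5 UMIs. The kept nuclei of the endothelial-like class held 2425 Cldn5 UMIs and those of the vessel cluster 4535.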

How the results depend on the processing

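The count of the 10 genes called in endothelial-like nuclei was 0 in all 165 recomputed counts (33 settings, 5 contrasts). Of 1650 recomputed log2 fold changes of single members, 356 had the other sign than the main fit and 31 an unadjusted p under 0.05, and none was called. The other sign came in 122 of 200 values with barcodes over the mitochondrial limit and in 234 of 1450 values under the other settings. Of the 50 differences (10 genes, 5 contrasts), 49 took the other sign under at least 1 setting. Tjp1 with TBI averaged over BCAS kept its sign, at 0.08 to 0.40. With the group means removed, correlations in endothelial-like nuclei were −0.27 to 0.26 between same-numbered libraries and 0.25 to 0.27 within depth sets. In control, BCAS and TBI the numbers follow the depth sets, and in BCAS+TBI they are swapped. The 2 libraries of a group are mirror images once their mean is removed, so only the sign can differ between these pairings. The check therefore cannot show whether the replicate numbers pair libraries. A replicate block left 0 members called. Over all classes the main fit called 0 pairs in each contrast. In the order TBI averaged over BCAS, BCAS averaged over TBI, BCAS+TBI against TBI, BCAS+TBI against control, a library set block called 5, 117, 37 and 81 pairs. That block with the barcodes over the mitochondrial limit joined called 5, 103, 37 and 50, and with those barcodes alone 5, 105, 38 and 50. Without a filter on low counts 51, 123, 31 and 79 were called, and 22 for the interaction. Adjustment within each class called 2 pairs in the TBI contrast and 12 in BCAS+TBI against control, and DESeq2 called 1 and 5. Leaving out 1 library gave 0 to 26 for BCAS+TBI against control (26 without BCAS+TBI 1, 5 without TBI 1) and 0 to 2 for the interaction (2 without BCAS+TBI 2). The cause of these shifts was not tested.

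The TBI difference in the share of endothelial-like nuclei was −0.262 percentage points, ranged from −0.715 to 0.139 with 1 library left out (0.139 without control 2, 0.0943 without BCAS+TBI 2), and was 0.760 (exact permutation p = 0.457) with the barcodes over the limit joined. The BCAS difference was then −0.504 (exact permutation p = 0.629). Joining the vessel cluster gave an exact permutation p of 0.0571 for BCAS. The gate on single nuclei gave levels of 338 CPM for Cldn5 and 539 CPM for Slco1a4, and 57.5% to 89.1% of its UMIs came from nuclei outside the endothelial-like class and the vessel cluster. With doublets kept, at resolution 0.5, or with at least 1000 UMIs, no endothelial class could be named and no value was obtained. The settings with barcodes over the limit, with the vessel cluster joined, and with the library set block and 1 library left out were chosen after seeing the data.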
